A study of Mus musculus with 11 samples.

Results

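The interaction of the Tyrobp and Inpp5d genotypes was examined in sorted mouse microglia as the departure of the compound mutant from what the single genotypes give together. All 11 libraries of the series entered, and 20390 of the 55401 genes listed had enough counts to be tested. The groups were Tyrobp-/-;Inpp5d+/-;NLGF, called the compound mutant here (3 libraries), Tyrobp-/-;NLGF, called the Tyrobp-/- mutant (2 libraries), Inpp5d+/-;NLGF, called the Inpp5d+/- mutant (3 libraries) and NLGF (3 libraries). Every mouse, controls included, carried the NLGF knock-in at App, a model of amyloid plaques. The mice were of the C57BL/6 strain and aged 9 to 10 months. No group without amyloid was analysed here, and the labels name no cell type to which either targeted allele is restricted. Live CD11b+/CD45+ brain cells were taken as microglia. The 29 homeostatic microglia markers were all detected in all 11 libraries, at summed levels of 94751 to 97361 CPM (counts scaled to library size) in the compound mutant, 98322 to 101133 CPM in the Tyrobp-/- mutant, 81621 to 83886 CPM in the Inpp5d+/- mutant and 78187 to 92579 CPM in NLGF.

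Tyrobp encodes DAP12, a small membrane adaptor whose phosphorylated motif passes on signals from receptors without a signalling tail of their own. The best known of these in microglia is TREM2, a lipid sensor that microglia need to take on the disease-associated (DAM) state around plaques. Inpp5d encodes SHIP1, a phosphatase that removes the 5-phosphate of the lipid messenger PIP3 and is recruited to the same adaptor, where it dampens its signal. A genetic interaction of the pair asks whether less SHIP1 has the same effect with and without DAP12.

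The interaction of a gene is given as a log2 value. It is the log2 fold change of the compound mutant over the Tyrobp-/- mutant minus that of the Inpp5d+/- mutant over NLGF, so 0 means that Inpp5d+/- multiplied the level by the same factor on both Tyrobp backgrounds. A positive value means that the compound mutant lay above the product of the single effects, and a negative value that it lay below. Sample titles carry numbers whose ranges do not overlap between libraries without and with Tyrobp. Each of the differences is formed within a single range, but in comparing them, the range and the Tyrobp genotype cannot be told apart.

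No gene departed from additivity at an adjusted p below 0.05 in edgeR's quasi-likelihood test over all genes (0 of 20390, 0%). At an adjusted p below 0.1, 2 genes did, both positive (0.00981%): Fzd9, which encodes a Wnt receptor of the Frizzled family, and Mamdc2, a secreted protein with MAM domains. At an unadjusted p below 0.05 the test listed 958 genes, 548 positive (2.69%) and 410 negative (2.01%). DESeq2 called 30 of the 20390 genes, 18 positive and 12 negative, and limma-voom with quality weights called 0. For 1172 genes DESeq2 gave no adjusted p, so they could not be called. Some DESeq2 calls had extreme fitted log2 values, such as Bcas1 (43.0), Mapt (27.3), Hepacam2 (26.3), Tubb3 (25.1) and Zfp977 (-20.7). Tubb3, a neuron marker, was at 0 in compound replicates 2 and 3 and in both Tyrobp-/- mutant libraries. The departures of most expressed genes were small beside their error. Among the 11214 genes that averaged 5 CPM or more in a group, the median interaction was 0.02 and the middle 90% of genes lay between -0.88 and 0.76, with a median standard error (SE) of 0.37. The median SE of the Inpp5d+/- effect was 0.28 without Tyrobp and 0.25 with it.

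**Figure D1:**
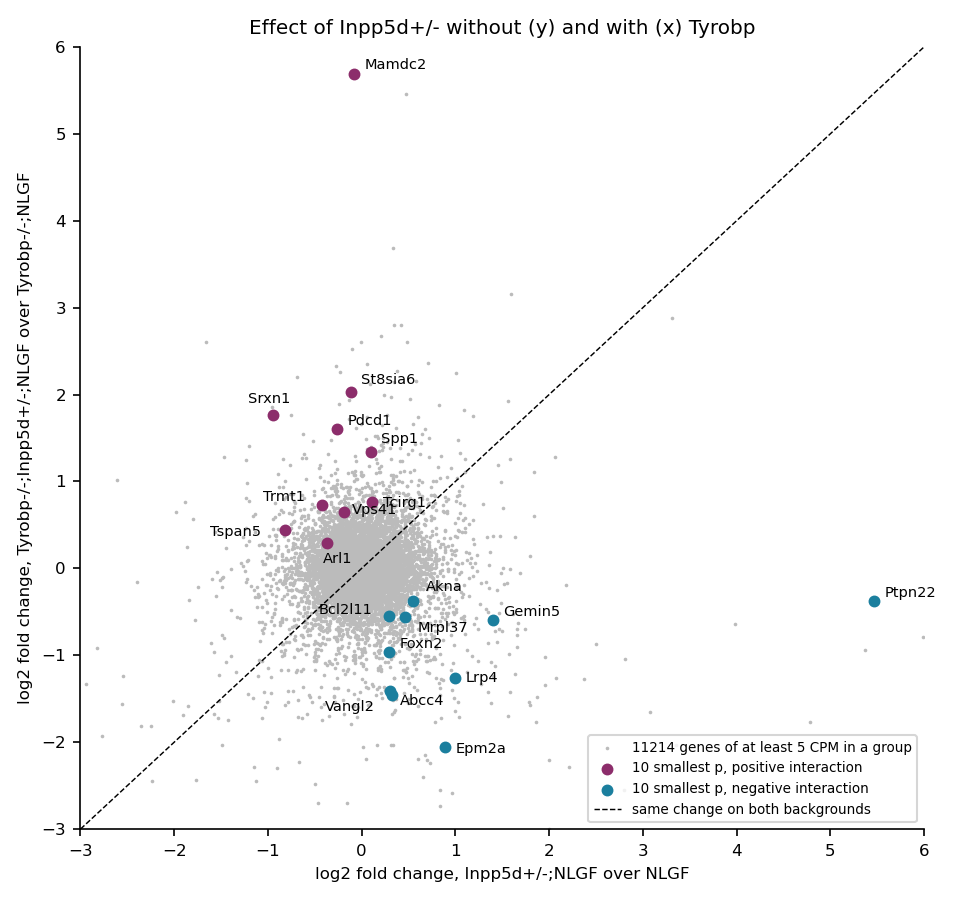
Log2 fold change of the compound mutant over the Tyrobp-/- mutant (y axis) against that of the Inpp5d+/- mutant over NLGF (x axis) for 11214 genes (grey points), of which 34 lie outside the axes; the dashed line marks equal effects. Mamdc2 (5.69 on the y axis, -0.08 on the x axis) lies farthest above the line among the 10 positive genes shown, and Ptpn22 farthest below it among the 10 negative genes.

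The targeted genes were examined next. Tyrobp was at 3.22, 8.39 and 3.88 CPM in the compound mutant and 8.94 and 7.01 CPM in the Tyrobp-/- mutant, against 1952 to 2306 CPM in the Inpp5d+/- mutant and 1999 to 2560 CPM in NLGF. Its remaining counts overlapped between both Tyrobp-/- groups, and its interaction of -0.59 (SE 0.44) did not pass. Inpp5d was at 190, 260 and 259.5 CPM in the compound mutant and 449 and 447 CPM in the Tyrobp-/- mutant, and at 280, 219 and 191 CPM in the Inpp5d+/- mutant and 436, 205 and 313 CPM in NLGF. The libraries did not overlap without Tyrobp and overlapped with it. The Inpp5d+/- effect on this transcript did not pass in edgeR's test on either background. Its log2 value was -0.92 (SE 0.28) without Tyrobp and -0.47 (SE 0.25) with it. The Inpp5d interaction was -0.45 (SE 0.38, adjusted p = 1), so a difference between the 2 backgrounds was not detectable either. The receptor gene Trem2 (0.17, SE 0.17) and App, which carries the knock-in (-0.48, SE 0.26), did not pass either.

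Fzd9 (chromosome 5, minus strand) had the smallest p of all genes. It was at 2.39, 2.09 and 1.33 CPM in the compound mutant and had 0 counts in both Tyrobp-/- mutant libraries, and was at 2.06, 2.13 and 3.80 CPM in the Inpp5d+/- mutant and 3.25, 6.74 and 3.66 CPM in NLGF. The compound mutant thus lay within the range of the Inpp5d+/- mutant or just below it, while the Tyrobp-/- mutant stood apart from every other group. Against a floor of 3 counts per library, the interaction was at least 5.84 on the log2 scale, or at least 57.3-fold (adjusted p = 0.0779). These are low levels, and the value rests on 2 libraries without a count.

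Mamdc2 (chromosome 19) came next. It was at 2.07, 6.51 and 5.19 CPM in the compound mutant and 0.0996 and 0.0740 CPM in the Tyrobp-/- mutant, and at 80.9, 84.0 and 72.6 CPM in the Inpp5d+/- mutant and 96.6, 83.7 and 70.2 CPM in NLGF. Each compound library lay above both Tyrobp-/- mutant libraries and far below all libraries with Tyrobp, and the groups with Tyrobp overlapped each other. The product of the single effects gives 0.0823 CPM for the compound mutant, whose mean was 4.59 ± 2.28 CPM (SD, n = 3). The interaction was 5.77 (SE 0.67, adjusted p = 0.0779), and the level kept without Tyrobp was 5.8% on the Inpp5d+/- background and 0.104% on the Inpp5d+/+ background. Without compound replicate 1, the library with the lowest value, Mamdc2 passed (6.12, adjusted p = 0.000525). Over the fits that left out each library in turn, its adjusted p ran from 0.000525 to 1. In bulk RNA, fewer cells that make a transcript and less of it per cell cannot be told apart, which holds for every gene below.

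Beyond these, the 10 positive and 10 negative genes with the smallest p among named genes of at least 5 CPM were taken, Mamdc2 among the positive. All others had an edgeR adjusted p of 1, so their values are given as not passing. DESeq2 called 12 of the 20, against 30 of all 20390 genes. The 12 were Mamdc2, Srxn1, St8sia6, Tspan5, Spp1, Pdcd1, Ptpn22, Vangl2, Bcl2l11, Gemin5, Mrpl37 and Akna. The 20 were chosen by their p in these same counts, so the DESeq2 calls are no independent support. The 10 positive genes fell into 2 patterns. Mamdc2, St8sia6, Spp1, Pdcd1 and Tcirg1 were called lower for loss of Tyrobp when both Inpp5d genotypes were pooled, and were lowered less in the compound mutant. Srxn1, Tspan5, Arl1, Vps41 and Trmt1 were not called for Tyrobp in the pooled model. Tspan5 was, however, called lower in the Tyrobp-/- mutant than in NLGF in edgeR's test (log2 -1.28, adjusted p = 0.0325).

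St8sia6, a sialyltransferase, was at 19.6, 18.3 and 39.7 CPM in the compound mutant and 6.99 and 5.66 CPM in the Tyrobp-/- mutant, and at 103, 128 and 134 CPM in the Inpp5d+/- mutant and 149, 117 and 128 CPM in NLGF. As for Mamdc2, the compound mutant lay between the Tyrobp-/- mutant and the groups with Tyrobp, without overlap. The interaction was 2.14 (SE 0.42), or 4.42-fold. Spp1, the secreted matrix protein osteopontin and a leading DAM gene, was at 25.5, 34.5 and 44.1 CPM in the compound mutant and 11.5 and 15.9 CPM in the Tyrobp-/- mutant, and at 548, 613 and 601 CPM in the Inpp5d+/- mutant and 646, 502 and 499 CPM in NLGF. The compound mutant kept 5.91% of the Inpp5d+/- mutant level, and the Tyrobp-/- mutant kept 2.49% of the NLGF level (interaction 1.25, SE 0.30). On the CPM scale the Spp1 value was below 0 but within its error (-17.2 CPM, SE 52.7). There the Inpp5d+/- mutant averaged 587 ± 34.8 CPM and NLGF 549 ± 83.7 CPM (SD, n = 3 each). Pdcd1, the checkpoint receptor PD-1, was at 48.7, 66.8 and 113 CPM in the compound mutant and 28.5 and 21.7 CPM in the Tyrobp-/- mutant, and at 104, 176 and 162 CPM in the Inpp5d+/- mutant and 147, 171 and 211 CPM in NLGF. Here the highest compound library exceeded the lowest Inpp5d+/- mutant library (interaction 1.86, SE 0.47). Tcirg1, a subunit of the proton pump that acidifies lysosomes, was at 123, 127 and 123 CPM in the compound mutant and 81.2 and 65.9 CPM in the Tyrobp-/- mutant, and at 136 to 157 CPM in the Inpp5d+/- mutant and 128 to 149 CPM in NLGF (interaction 0.65, SE 0.16).

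The sequences before the starts of Pdcd1 and of Abcc4, described below, are shown because these genes had a positive and a negative interaction at levels well above the floor, and because both windows of 250 bases end where the deposited gene begins. The pair was picked after the motif matches were seen. They are from RefSeq on GRCm38.p6, both on the minus strand, at chr1:94052554-94052803 for Pdcd1 and chr14:118706220-118706469 for Abcc4. Capitals mark matches on either strand to GAGGAA, the core recognised by the myeloid factor PU.1, and to CACGTG, an E-box core recognised by the MiT/TFE factors among others. No match overlaps another.
Pdcd1: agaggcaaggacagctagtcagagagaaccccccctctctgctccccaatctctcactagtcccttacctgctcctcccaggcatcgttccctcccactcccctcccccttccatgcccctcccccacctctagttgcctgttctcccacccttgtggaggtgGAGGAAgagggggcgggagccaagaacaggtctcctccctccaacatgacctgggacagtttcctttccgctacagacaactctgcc
Abcc4: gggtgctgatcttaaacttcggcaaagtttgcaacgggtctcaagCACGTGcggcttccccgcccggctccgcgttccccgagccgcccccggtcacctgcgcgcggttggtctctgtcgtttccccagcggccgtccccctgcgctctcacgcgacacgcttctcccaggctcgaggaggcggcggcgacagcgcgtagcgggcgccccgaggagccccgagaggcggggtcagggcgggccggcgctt
The Pdcd1 window holds 1 match to GAGGAA and the Abcc4 window 1 match to CACGTG. A further Abcc4 window and the windows that end at the deposited starts of Bcl2l11, Gemin5 and Tcirg1 hold neither, and that of Ptpn22 holds 1 match to GAGGAA. Among 32851 promoter windows of this length, 23.3% hold GAGGAA and 6.02% hold CACGTG. A match describes the letters only.

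In the other positive genes each single genotype lay at or below NLGF and the compound mutant did not lie lower still. Srxn1, the antioxidant enzyme sulfiredoxin, was at 14.4, 10.5 and 8.44 CPM in the compound mutant and 3.62 and 2.92 CPM in the Tyrobp-/- mutant, and at 3.88, 3.40 and 7.08 CPM in the Inpp5d+/- mutant and 7.49, 10.8 and 9.36 CPM in NLGF. Both single genotypes lay below every NLGF library and the compound mutant overlapped NLGF. The product of the single effects gives 1.70 CPM, and the interaction was 2.71 (SE 0.52), or 6.55-fold. Tspan5, a tetraspanin that escorts the protease ADAM10, was at 32.1, 23.2 and 26.5 CPM in the compound mutant and 19.6 and 20.6 CPM in the Tyrobp-/- mutant, and at 21.8, 29.2 and 32.5 CPM in the Inpp5d+/- mutant and 49.5, 54.9 and 42.2 CPM in NLGF. All 3 mutant genotypes lay below NLGF, the compound mutant no lower than the single ones (1.26, SE 0.29). The Golgi GTPase gene Arl1 (0.66, SE 0.16), the endolysosomal fusion gene Vps41 (0.85, SE 0.21) and the tRNA methyltransferase gene Trmt1 (1.15, SE 0.30) made up the rest.

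**Figure D2:**
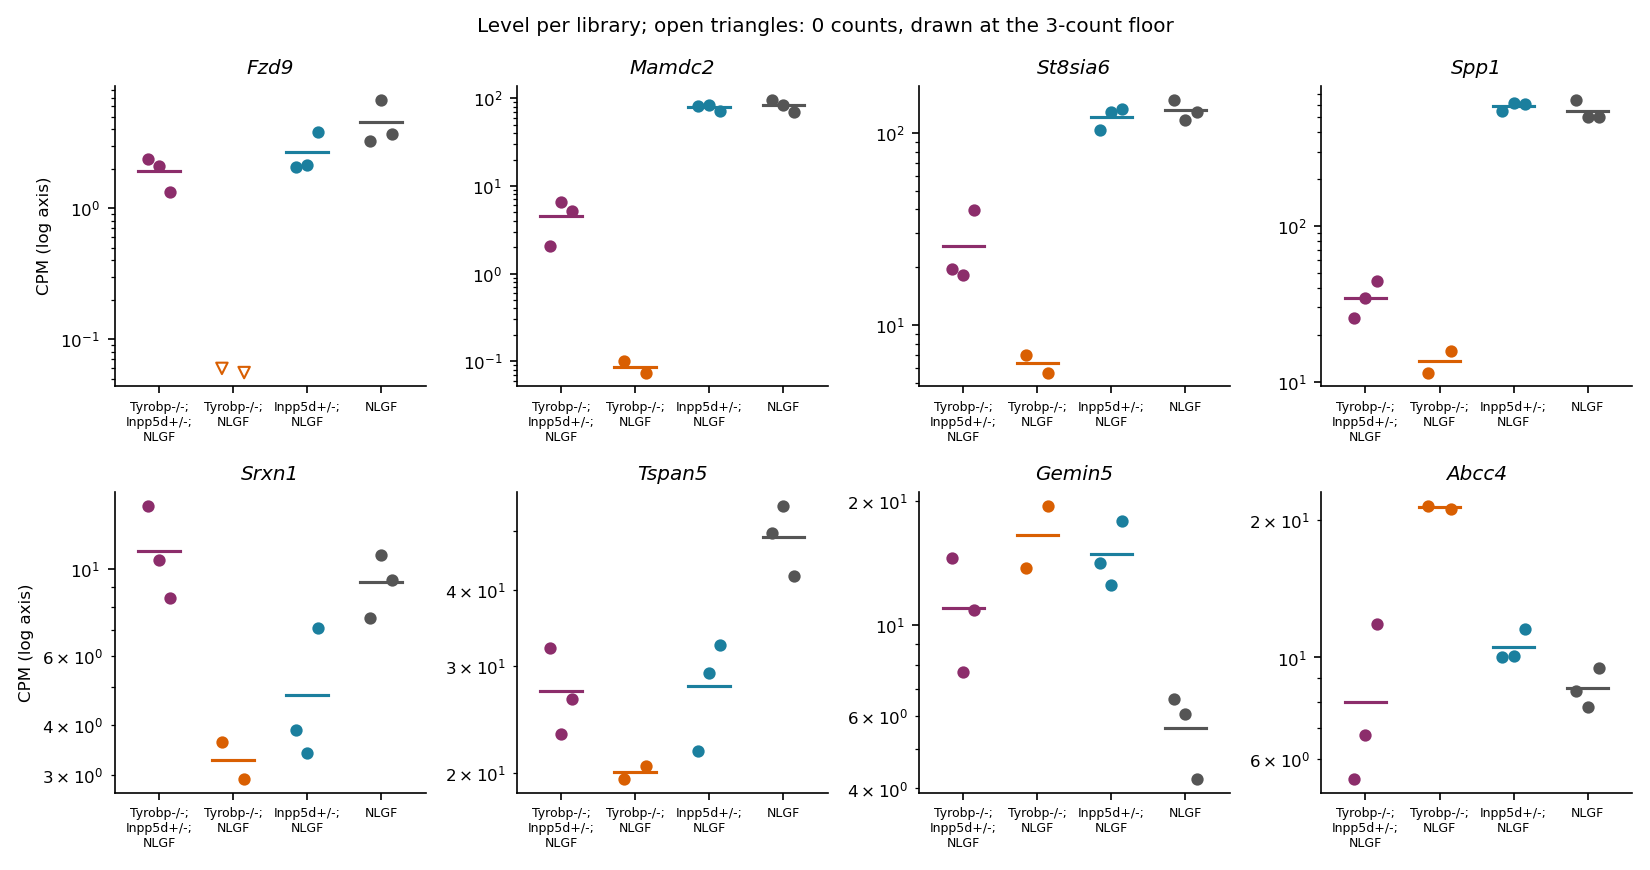
CPM per library (log axis) of 6 genes with a positive interaction and of Gemin5 and Abcc4 with a negative one, by genotype; points are libraries, lines are group means, and open triangles mark 0 counts drawn at the 3-count floor. Mamdc2, St8sia6 and Spp1 show compound libraries between the Tyrobp-/- mutant libraries and those with Tyrobp.

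The 10 negative genes had single genotypes at or above NLGF and a compound mutant below the product of the effects. Bcl2l11, the pro-apoptotic protein BIM, was at 31.7, 32.3 and 30.4 CPM in the compound mutant and 45.4 and 46.6 CPM in the Tyrobp-/- mutant, and at 53.3, 52.5 and 42.4 CPM in the Inpp5d+/- mutant and 40.9, 41.1 and 39.0 CPM in NLGF. Each single genotype lay above all NLGF libraries and the compound mutant below all of them (-0.84, SE 0.18). Foxn2, a forkhead transcription factor, had the same order, at 7.29, 6.59 and 6.94 CPM in the compound mutant and 11.5 and 15.5 CPM in the Tyrobp-/- mutant, and at 11.9, 10.5 and 10.4 CPM in the Inpp5d+/- mutant and 10.0, 7.84 and 8.97 CPM in NLGF (-1.25, SE 0.30).

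Vangl2, a planar cell polarity protein of the Wnt pathway, was at 5.27, 3.53 and 3.6 CPM in the compound mutant and 10.1 and 12.6 CPM in the Tyrobp-/- mutant, and at 11.5, 15.2 and 15.5 CPM in the Inpp5d+/- mutant and 13.1, 11.5 and 9.23 CPM in NLGF. Both single genotypes overlapped NLGF and the compound mutant lay below all 8 other libraries (-1.77, SE 0.37). Abcc4, an exporter of cyclic nucleotides and lipid mediators, was at 5.43, 6.77 and 11.8 CPM in the compound mutant and 21.4 and 21.1 CPM in the Tyrobp-/- mutant, and at 10.0, 10.1 and 11.5 CPM in the Inpp5d+/- mutant and 8.43, 7.78 and 9.48 CPM in NLGF. The Tyrobp-/- mutant libraries were higher than all others, and the compound libraries spanned the range of NLGF (-1.71, SE 0.42). Gemin5, which brings the SMN complex to small nuclear RNAs, was at 14.5, 7.66 and 10.8 CPM in the compound mutant and 13.7 and 19.4 CPM in the Tyrobp-/- mutant, and at 14.1, 12.5 and 17.9 CPM in the Inpp5d+/- mutant and 6.59, 6.07 and 4.22 CPM in NLGF. All 3 mutant genotypes lay above NLGF, and the compound mutant overlapped the Tyrobp-/- mutant (-1.99, SE 0.44).

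Ptpn22, a phosphatase of immune receptor signalling, was at 9.17, 5.81 and 2.71 CPM in the compound mutant, 8.32 and 7.03 CPM in the Tyrobp-/- mutant and 9.34, 5.36 and 2.51 CPM in the Inpp5d+/- mutant, against 0.0962, 0 and 0.255 CPM in NLGF. The mutant genotypes overlapped each other and NLGF alone was low. The fitted interaction of -5.85 (SE 1.19) depends on NLGF libraries at or near the floor of 3 counts and is no bound. The remaining negative genes were the mitochondrial ribosomal protein gene Mrpl37 (-1.03, SE 0.23), the AT-hook gene Akna (-0.93, SE 0.22), Epm2a, which encodes the glycogen phosphatase laforin (-2.94, SE 0.73), and the Wnt and agrin co-receptor gene Lrp4 (-2.26, SE 0.58). Reads were counted without known strand use, so those of Mamdc2, St8sia6, Tspan5, Arl1, Spp1, Trmt1, Ptpn22, Gemin5, Akna and Abcc4 cannot be told apart from those of genes that overlap them.

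DAM stage 2 genes, those whose induction around plaques depends on TREM2, were examined as a list of 30 members. In edgeR's test no member passed at an adjusted p below 0.05 (0 called, 0% of all genes), while DESeq2 called 2 of them, Mamdc2 and Spp1. At an unadjusted p below 0.05, 13 members were positive and 2 negative, against 2.69% and 2.01% of all genes, and 23 of 30 (76.7%) had a positive value, against 51.4% of all genes. The list median was 0.44, against 0.02 over all genes. Of the 30, 6 had been put on the list from earlier results of these libraries. They were Mamdc2, which DESeq2 called, Lox, Postn, Cox6a2, Ank and Cadm1. Without them 9 of 24 were positive and 1 negative at that p, and the median was again 0.44. The highest value of the 24 was 2.61. The list median was 0.44 for the Inpp5d+/- effect without Tyrobp and 0.01 for that with Tyrobp.

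The 13 positive members spanned 0.26 to 5.77, the top being Mamdc2, put on the list from earlier results. On the CPM scale 3 of them, Spp1, Lpl and Lox, had a value below 0. Serpine2, an inhibitor of serine proteases, was at 1751, 1854 and 2079 CPM in the compound mutant and 1073 and 1089 CPM in the Tyrobp-/- mutant, and at 3305, 3373 and 3309 CPM in the Inpp5d+/- mutant and 2919, 2646 and 2391 CPM in NLGF. Libraries with Inpp5d+/- lay above their counterparts on both Tyrobp backgrounds without overlap, and the interaction was 0.48 (SE 0.13). The adhesion gene Cadm1 was at 294, 295 and 316 CPM in the compound mutant and 242 and 248 CPM in the Tyrobp-/- mutant, and at 498 to 515 CPM in the Inpp5d+/- mutant and 506 to 573 CPM in NLGF (0.38, SE 0.11). The growth factor gene Igf1 was at 7.29, 21.0 and 15.3 CPM in the compound mutant and 6.25 and 7.31 CPM in the Tyrobp-/- mutant, against 107 to 133 CPM in the Inpp5d+/- mutant and 107 to 147 CPM in NLGF. Of the compound libraries, 1 thus overlapped the Tyrobp-/- mutant (1.25, SE 0.47).

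The lipase gene Lpl was at 35.4, 48.0 and 105 CPM in the compound mutant and 25.2 and 19.3 CPM in the Tyrobp-/- mutant, against 325 to 464 CPM in the Inpp5d+/- mutant and 299 to 384 CPM in NLGF (1.27, SE 0.52). Compound replicate 3 was the highest of its group for Lpl. On the CPM scale the Lpl value was below 0 but within its error (-16.8 CPM, SE 52.1). The pyrophosphate transporter gene Ank (0.80, SE 0.26), the β-glucan receptor gene Clec7a (1.04, SE 0.45), the chemokine gene Ccl6 (0.41, SE 0.16), the tetraspanin gene Cd9 (0.47, SE 0.17), the hypoxia regulator gene Hif1a (0.48, SE 0.21), the lysosomal protease gene Ctsl (0.26, SE 0.09) and the lysyl oxidase gene Lox (3.36, SE 1.35) were the other positive members, beside Mamdc2 and Spp1. Well known members with values near 0 were Gusb (-0.01) and Timp2 (-0.04). Itgax (0.22, SE 0.69) had an error too large to tell a value near 0 from those of most positive members. The negative members were Postn (-2.99, SE 0.94) and Gpnmb (-3.97, SE 1.32). Postn, the matrix protein periostin, was at 0.320, 0.0796 and 0.684 CPM in the compound mutant and 5.0 and 2.42 CPM in the Tyrobp-/- mutant, against 5.51 to 11.4 CPM in the Inpp5d+/- mutant and 6.75 to 13.6 CPM in NLGF. Gpnmb, a lysosomal glycoprotein of foamy macrophages, was at 0.0377, 0.0319 and 0.0804 CPM in the compound mutant, and at 1.45 and 0.0185 CPM in the Tyrobp-/- mutant, against 39.4 to 60.7 CPM in the Inpp5d+/- mutant and 43.1 to 50.6 CPM in NLGF. Tyrobp-/-;NLGF replicate 1 held nearly all of its counts in the libraries without Tyrobp.

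**Figure D3:**
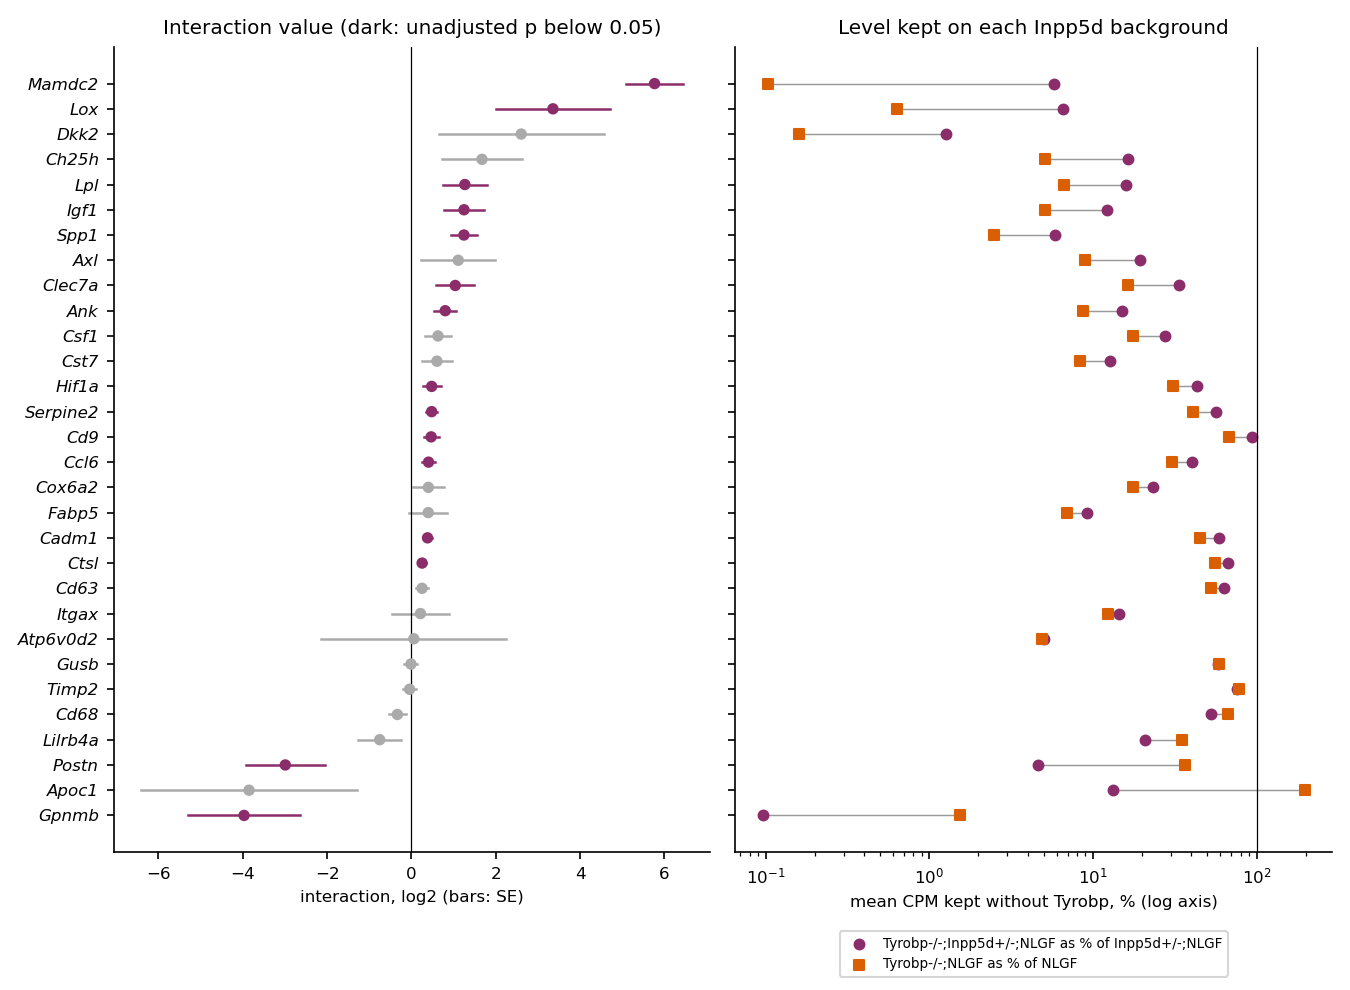
Interaction of the 30 DAM stage 2 genes (left, log2 with SE; dark points have an unadjusted p below 0.05) and the level kept without Tyrobp (right, percent on a log axis) for the compound mutant over the Inpp5d+/- mutant (circles) and the Tyrobp-/- mutant over NLGF (squares). For Spp1 the circle is at 5.91% and the square at 2.49%.

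The compound libraries differed among themselves in this list. Relative to the product of the single effects, the median departure of the 30 members was 0.24, 0.35 and 0.61 (log2) in compound replicates 1, 2 and 3. Compound replicate 1 was the lowest of its group in 11 of the 13 positive members, and compound replicate 3 was the highest in 8. Compound replicate 1 also held the most RNA of the 14 neuron markers, at a summed 38.7 CPM. The sums were 3.28 and 3.50 CPM in the other compound libraries and 2.81 and 5.26 CPM in the Tyrobp-/- mutant. They were 3.23 to 11 CPM in the Inpp5d+/- mutant and 2.74 to 6.32 CPM in NLGF. Without compound replicate 1 the median of the DAM stage 2 list was 0.55, with 13 members positive and 2 negative at an unadjusted p below 0.05. Without compound replicate 3 the median was 0.37, with 9 positive and 3 negative.

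Markers of blood-derived myeloid cells varied widely between libraries of the same genotype without Tyrobp. The 14 neutrophil markers summed to 259.5, 9975 and 2295 CPM in the compound mutant and 19287 and 4456 CPM in the Tyrobp-/- mutant, and to 132, 54.7 and 190 CPM in the Inpp5d+/- mutant and 0.737, 233.2 and 87.7 CPM in NLGF. The 2 Tyrobp-/- groups overlapped, and all 14 markers were detected in each of their 5 libraries, while 1 to 7 markers were at 0 in Inpp5d+/- mutant libraries and 2 to 8 in NLGF libraries. Among those at 0 were Elane, Padi4, Ly6g and Retnlg in NLGF replicate 1. The 16 monocyte markers summed to 130, 1226 and 365 CPM in the compound mutant and 2212 and 625 CPM in the Tyrobp-/- mutant, against 29.4 to 100 CPM in the Inpp5d+/- mutant and 35.6 to 69.9 CPM in NLGF. All 16 had a negative interaction, 3 of them at an unadjusted p below 0.05, with a median of -2.16. Over all genes 51.4% were positive, and 2.01% were negative at that p. The neutrophil median was -1.71, with 3 of 14 positive and none at that p. With the mean neutrophil marker level as a covariate the DAM stage 2 median was 0.44, with 12 members positive and 0 negative, and the interaction test called 0 genes.

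In the list of TYROBP-coupled and paired receptors 25 of 29 tested members had a negative value, with a median of -0.28. A positive value was held by 13.8% of members, against 51.4% of all genes. Lilra6 and Pira2 were negative at an unadjusted p below 0.05, against 2.01% of all genes. Lilra6 was at 0.245, 0.621 and 0.342 CPM in the compound mutant and 4.02 and 2.02 CPM in the Tyrobp-/- mutant, against 0.143 to 0.321 CPM in the Inpp5d+/- mutant and 0.0796 to 0.144 CPM in NLGF. Both belong to families of near-identical genes whose reads may be divided among members. The part of neutrophil and monocyte RNA in these values was not tested.

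The genes of TREM2, TYROBP and SHIP1 signalling, the pathway of the targets themselves, were described as a list. Of its 33 members none was positive and 2 were negative at an unadjusted p below 0.05, against 2.69% and 2.01% of all genes, with a median of -0.13. These were Pik3r5, a regulatory subunit of the PI3 kinase that makes PIP3, and Nfatc1, a calcium-controlled transcription factor. Pik3r5 was at 29.6, 45.7 and 67 CPM in the compound mutant and 69.6 and 67.4 CPM in the Tyrobp-/- mutant, and at 50.9, 46.2 and 47.9 CPM in the Inpp5d+/- mutant and 38.5, 38.1 and 36.2 CPM in NLGF (-0.89, SE 0.35). Both single genotypes lay above NLGF while the compound libraries ran from below NLGF to just under the Tyrobp-/- mutant. Nfatc1 was at 85.0, 81.9 and 111 CPM in the compound mutant and 105 and 109 CPM in the Tyrobp-/- mutant, and at 95, 99.9 and 113 CPM in the Inpp5d+/- mutant and 83.2, 76.5 and 81.0 CPM in NLGF (-0.56, SE 0.20).

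Homeostatic microglia genes had a median of -0.02 over 29 members, with 1 positive and 1 negative at an unadjusted p below 0.05. The shares of all genes were 2.69% and 2.01%. The positive one was Irf8, a transcription factor of the myeloid lineage, at 921, 911 and 862 CPM in the compound mutant and 751 and 706 CPM in the Tyrobp-/- mutant, and at 690 to 837 CPM in the Inpp5d+/- mutant and 721 to 865 CPM in NLGF (0.36, SE 0.15). Its compound libraries lay above those of the Tyrobp-/- mutant without overlap. The negative one was the protease inhibitor gene Cst3 (-0.32, SE 0.14). The 10 DAM stage 1 genes, which do not need TREM2, had a median of 0.04 and no member at that p.

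Other lists had few members at an unadjusted p below 0.05, where 2.69% of all genes were positive and 2.01% negative. Of 22 glycolysis genes 2 were positive, Hif1a and the glucose transporter gene Slc2a1, with a list median of 0.14. Slc2a1 was at 116, 109 and 106 CPM in the compound mutant and 66.2 and 84.9 CPM in the Tyrobp-/- mutant, and at 119, 162 and 174 CPM in the Inpp5d+/- mutant and 170, 161 and 178 CPM in NLGF (0.70, SE 0.23). Of 35 lysosomal genes 2 were positive, Ctsl and Tmem106b (median 0.02), and of 24 cholesterol synthesis genes 1 was negative, the sterol transporter gene Stard4 (median -0.07). Of 26 proliferation genes 3 were negative, all subunits of the replicative helicase, namely Mcm2, Mcm3 and Mcm6, with a list median of -0.46. Mcm3 was at 47.0, 53.7 and 73.1 CPM in the compound mutant and 96.9 and 80.0 CPM in the Tyrobp-/- mutant, and at 59.2, 86.9 and 62.2 CPM in the Inpp5d+/- mutant and 54.7, 52.0 and 58.3 CPM in NLGF (-0.95, SE 0.29). The compound mutant lay below the Tyrobp-/- mutant and across the range of NLGF.

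Of 32 immediate early and dissociation response genes 1 was negative at an unadjusted p below 0.05, Nr4a1, with a list median of -0.43. Over all genes, 2.69% were positive and 2.01% negative at that p. Nr4a1, a nuclear receptor that is also among the monocyte markers, was at 5.93, 8.33 and 12.7 CPM in the compound mutant and 18.2 and 25.1 CPM in the Tyrobp-/- mutant, and at 5.46, 2.93 and 8.96 CPM in the Inpp5d+/- mutant and 4.82, 2.74 and 2.04 CPM in NLGF (-2.12, SE 0.70). The interferon response (30 genes, median 0.26) and the complement and phagocytic receptor list (23 tested genes, median -0.14) had no member at that p. The lists of MHC genes (Tap2), inflammatory cytokines (Ccl9), lipid handling (Lpl), Alzheimer risk genes (Tmem106b) and Wnt signalling (Fzd9) had 1 positive member each, with medians of 0.18, 0.00, -0.09, -0.12 and 0.20. The 40 cytosolic ribosomal protein genes had no member at that p and a median of 0.10. Of them 33 were positive (82.5%), against 51.4% of all genes. Among markers of other cells, the median was -0.37 for border-associated macrophages, -0.13 for lymphocytes, 2.27 for neurons, 0.16 for astrocytes, 0.14 for oligodendrocytes, -0.67 for endothelial and mural cells and -0.75 for erythroid cells, with 3 to 12 tested members each. Of these, 1 macrophage marker was negative, and 2 neuron markers and 1 endothelial marker were positive at that p. The median departure of the neuron markers was 3.31, -1.23 and -1.41 (log2) in compound replicates 1, 2 and 3, so the sign of their median rests on replicate 1.

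**Figure D4:**
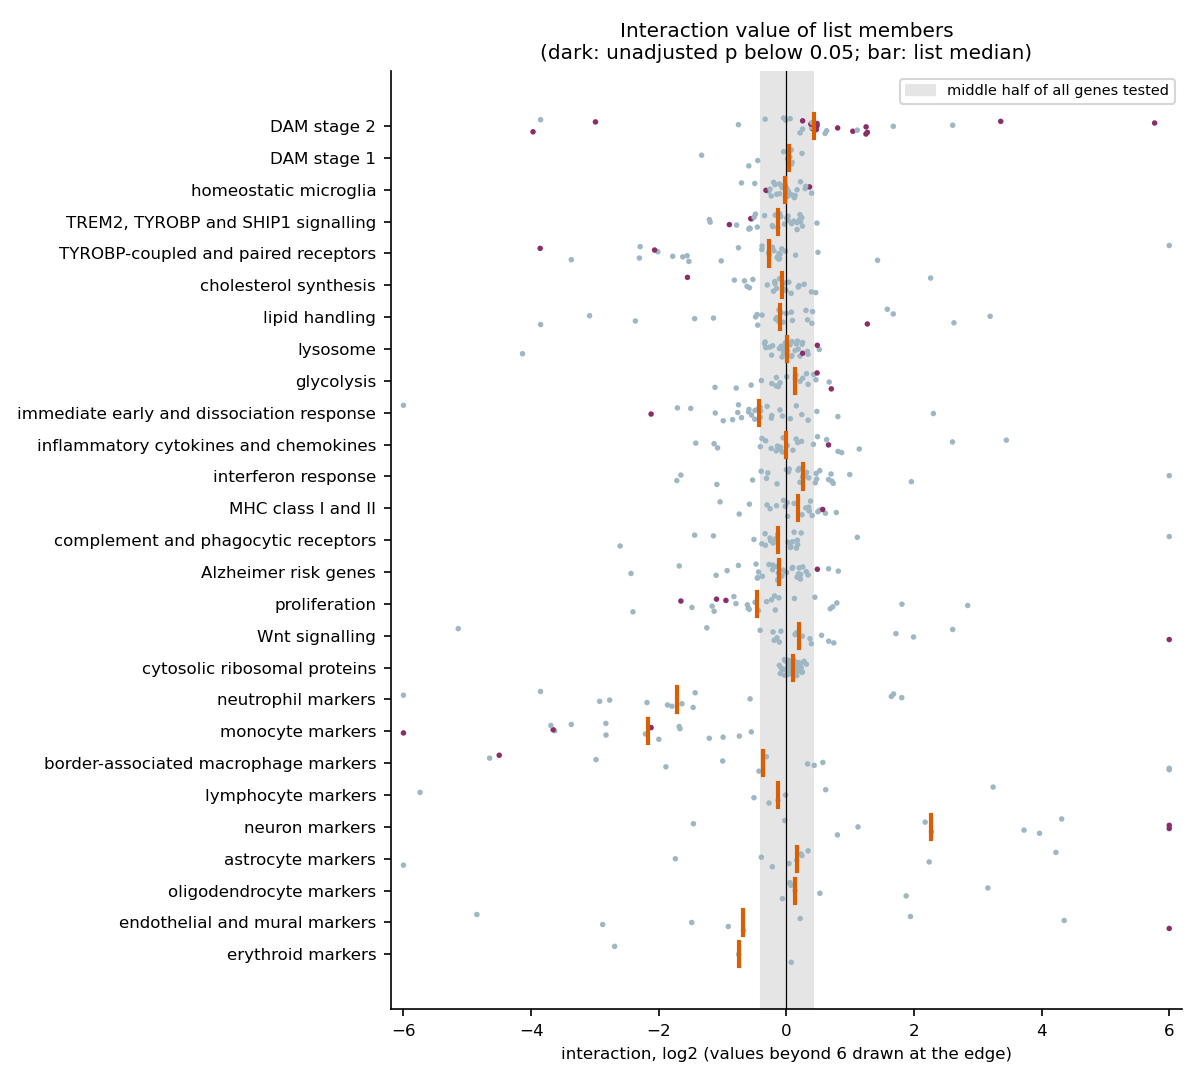
Interaction (log2) of each tested member of 27 gene lists; dark points have an unadjusted p below 0.05, orange bars are list medians and the grey band is the interquartile range of all tested genes. The list medians run from -2.16 for monocyte markers to 2.27 for neuron markers, with DAM stage 2 at 0.44 and neutrophil markers at -1.71.

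The genes that responded to Tyrobp when the Inpp5d genotypes were pooled were described as well, 500 higher (2.45%) and 594 lower (2.91%) without Tyrobp. At an unadjusted p below 0.05, 2.69% of all genes had a positive interaction and 2.01% a negative one. The interaction of the lower set had a median of 0.07, with 39 of 594 genes positive and 5 negative at that p. That of the higher set had a median of -0.10, with 6 of 500 positive and 8 negative at that p. These sets come from the same 11 libraries as the interaction, and no member passed for it in edgeR's test. DESeq2 called 4 genes of the lower set (Mamdc2, St8sia6, Spp1 and Pdcd1) and 1 of the higher set (Akna). For the lower set, the median log2 fold change was -0.72 for the compound mutant over the Inpp5d+/- mutant and -0.75 for the Tyrobp-/- mutant over NLGF. For the higher set, it was 0.75 and 0.87 in the same comparisons. Of the 5 largest and 5 smallest interaction values over both sets, all but that of Mamdc2 belonged to genes with libraries at 0, for which no fold is given. Flt1, a VEGF receptor that is also an endothelial marker, was at 0.0377, 0.143 and 2.61 CPM in the compound mutant and had 0 counts in both Tyrobp-/- mutant libraries, against 9.04 to 15.8 CPM in the Inpp5d+/- mutant and 6.08 to 7.85 CPM in NLGF. Fxyd6, a regulator of the sodium pump, was at 0, 0.0159 and 0.905 CPM in the compound mutant and had 0 counts in the Tyrobp-/- mutant, against 4.44 to 12 CPM in the Inpp5d+/- mutant and 10.3 to 11.8 CPM in NLGF. In both genes a single compound library, replicate 3, carried most of the counts. The neutrophil genes Retnlg and Prtn3 were at 0 in all NLGF libraries, and Hdc and Gapt in all Inpp5d+/- mutant libraries. The pooled Inpp5d effect was called for 0 genes, with 1005 at an unadjusted p below 0.05.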

How the data were processed

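RNA was measured in 11 libraries of sorted microglia, made with the SMART-Seq v4 kit, which does not mark strand, per the labels' protocols. The submitters' processing notes name STAR 2.7.3a, featureCounts 1.6.4 and the builds GRCm38.p6 and mm10. Whole-number read counts per gene were deposited by the authors without normalisation. Annotation release, multimapping rule and strand use were not given in the sources used here. Library totals ran from 29490567 to 66637052 counts, a floor of 3 counts in a library was 0.0477 to 0.100 CPM, and floors cover counting error only. The labels do not tie libraries to separate animals, so the p values reflect the spread among libraries. Replicate numbers are sample order only.

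The filter was filterByExpr by group (count of 10, total of 15). CPM use TMM-scaled library sizes. A model with 1 coefficient per group was fitted with edgeR 4.0.16 (glmQLFit, glmQLFTest) in R 4.3.3, and adjusted p values are Benjamini-Hochberg values over all genes from this two-sided test. SE values come from the test statistic. An additive model gave the pooled Tyrobp and Inpp5d effects. The code was tested on simulated data. Alternatives used RLE and upper-quartile scaling, other filters, DESeq2 1.42.0, limma-voom (limma 3.58.1), sva 3.50.0, robust dispersion, a neutrophil marker covariate, a CPM scale, and left-out libraries or chromosomes. Of 21 genes looked up for a promoter, 17 had a RefSeq entry.

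The members, the 27 gene lists and the rule for named genes were chosen with earlier results of these data known. The rule named Tyrobp, Inpp5d, Trem2, App, Mamdc2 and Fzd9, then, in each direction, 10 genes of lowest p with a named symbol and 5 CPM or more in a group, the 2 members of each list, markers apart, with the smallest p at 1 CPM or more, and the 5 largest and 5 smallest interaction values among genes called for Tyrobp. Other DAM stage 2 members and marker genes were named after their values were seen.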

Additional observations from a re-analysis of the deposited data

How the results depend on the processing

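The count of genes that depart from additivity was 0 under both other scalings, no filter, robust dispersion, limma-voom, 1 surrogate variable, the neutrophil covariate, removal of the 2 libraries with most S100a8, and removal of chromosomes X and Y and 10 Mb around the targets. It was 2 (Fzd9 and Mamdc2) with the stricter filter and with a threshold of 0.1, and 30 with DESeq2. With each library left out it ran from 0 to 1. The gene was Mamdc2 without compound replicate 1 and Gpnmb without Tyrobp-/-;NLGF replicate 2, where the single library left was given the spread of the other groups. It was 1, Mamdc2, without compound replicate 1 and Tyrobp-/-;NLGF replicate 1 together, a setting chosen after seeing the data. The causes were not tested.

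The median of the DAM stage 2 list, all 30 members included, ran from 0.37 to 0.55 with each library left out. That of the genes lower without Tyrobp ran from 0.0040 to 0.12, and was 0.18 with the neutrophil covariate and 0.18 without the 2 libraries named together above. That of the higher genes ran from -0.17 to -0.053, and was -0.014 with the covariate and -0.041 with 1 surrogate variable. These sets were chosen anew in each fit and held 40 lower and 20 higher genes with the covariate.

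Over 65 named genes and 23 settings, 7 values changed sign and 17 passed the threshold that had not, 13 of them with DESeq2. Lyz2 was 0.12 without the 2 libraries together. On the CPM scale, Tyrobp was 45.6 (SE 211), Spp1 -17.2 (SE 52.7) and Lpl -16.8 CPM (SE 52.1). Hdc was -18.1 (SE 11.2), Gapt -0.29 (SE 2.05) and Flt1 -5.45 CPM (SE 2.35). No paired analysis was possible because the labels pair no libraries across groups, and replicate numbers are sample order only. With 2 Tyrobp-/-;NLGF libraries and a median SE of 0.37, interactions near that size were within the error of single genes. Far larger values also did not pass in edgeR's test over all genes, such as Mamdc2 (5.77, SE 0.67), Srxn1 (2.71, SE 0.52) and St8sia6 (2.14, SE 0.42).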
